A study of Homo sapiens with 12 samples.

Results

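The genes described here are 41 genes of the integrated stress response and the unfolded protein response. They were chosen by gene symbol, with earlier results of these data known, from the 26259 genes of a count table made from OCI-AML3 cells. They comprise the transcription factor ATF4 with 5 partner and target regulators, 6 stress effectors, 8 enzymes of amino acid and one-carbon metabolism, 6 amino acid transporters, 4 genes of the endoplasmic reticulum stress sensors and XBP1, and 11 chaperones and degradation factors of the endoplasmic reticulum. OCI-AML3 is a human acute myeloid leukaemia line that carries a mutated NPM1 gene. Poly(A) RNA was sequenced from parental wt cells and from cells edited in CD33 (a sialic acid-binding surface receptor), in CD123 (the interleukin-3 receptor alpha chain, gene symbol IL3RA) or in both, with 3 libraries of each genotype. All 12 libraries came from cells grown in RPMI medium with serum and glutamine, and no drug or stress agent was given. Editing used Cas9 protein complexed with guide RNA and electroporated into wt cells, after which edited cells were enriched by magnetic and flow sorting.

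Each edited genotype was 1 clone grown from a sorted cell, while the wt cells were the uncloned and unelectroporated parental population. A difference from wt therefore belongs to the clone, and the edit and the clone cannot be told apart. Whether the 3 libraries of a genotype were grown as separate cultures is not stated, and the p-values below then cover only the spread between libraries, which may be technical. In bulk RNA, fewer cells of a kind and less RNA per cell cannot be told apart either.

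In the integrated stress response, kinases that sense amino acid shortage, haem shortage, viral RNA or misfolded protein phosphorylate the translation factor eIF2, which lowers general translation while favouring translation of ATF4. ATF4, often paired with C/EBP proteins, then switches on amino acid transporters, serine and asparagine synthesis and regulators such as DDIT3 (CHOP). In the unfolded protein response, PERK (gene EIF2AK3) feeds the same eIF2 pathway, while IRE1 (ERN1, acting through XBP1) and ATF6 switch on chaperones such as BiP (HSPA5). ATF4 activity is largely set by translation, which RNA counts do not measure.

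Sequencing depth ranged from 15583315 to 61827969 counts per library, and 3 counts correspond to 0.0504 to 0.187 CPM, counts scaled to equal library size, across the libraries. Of 10 myeloid leukaemia markers 9 exceeded 1 CPM in every library, and the summed CPM of T and NK cell, B cell, erythroid, and fibroblast or epithelial markers reached at most 2.30, 1.70, 0.18 and 0.72 in any library. The edited genes checked the labels only weakly. CD33 RNA averaged 50.4 CPM in wt and 39.9 in CD33 KO, and IL3RA RNA 7.54 in wt and 3.52 in CD123 KO, but CD33 stood at 45.7 CPM and IL3RA at 7.64 in CD33/CD123 KO. IL3RA was also lower in CD33 KO, where CD33 alone was edited (4.80 CPM, log2 -0.70, adjusted p = 0.00109, edgeR's quasi-likelihood test). CD33/CD123 KO library 3 stood apart from libraries 1 and 2 of its clone. On the fourth principal component of all genes tested, which held 2.66% of the variance, it scored 30.2 against -9.66 and -20.1. That this library differs from its replicates in the members was also known before the members were examined here. The main counts of called members in that clone are therefore given with and without it. Other values on that clone include library 3 unless stated.

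All 41 members passed the filter on low counts, which left 14010 genes for testing. A member is said to have risen or fallen at an adjusted p under 0.05 (quasi-likelihood test of edgeR, with p-values adjusted by Benjamini and Hochberg's method over all genes tested). It is said to be called where the log2 fold change also exceeded 1.5 in size, as in the study's own design. Per kilobase of transcript, member levels in wt ran from 0.0363 RPKM for NUPR1 to 491 RPKM for CALR, and CALR, HSP90B1 and ATF4 were the highest at 491, 273 and 216 RPKM. In CD33 KO the highest member was ATF4 at 407 RPKM.

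**Figure D1:**
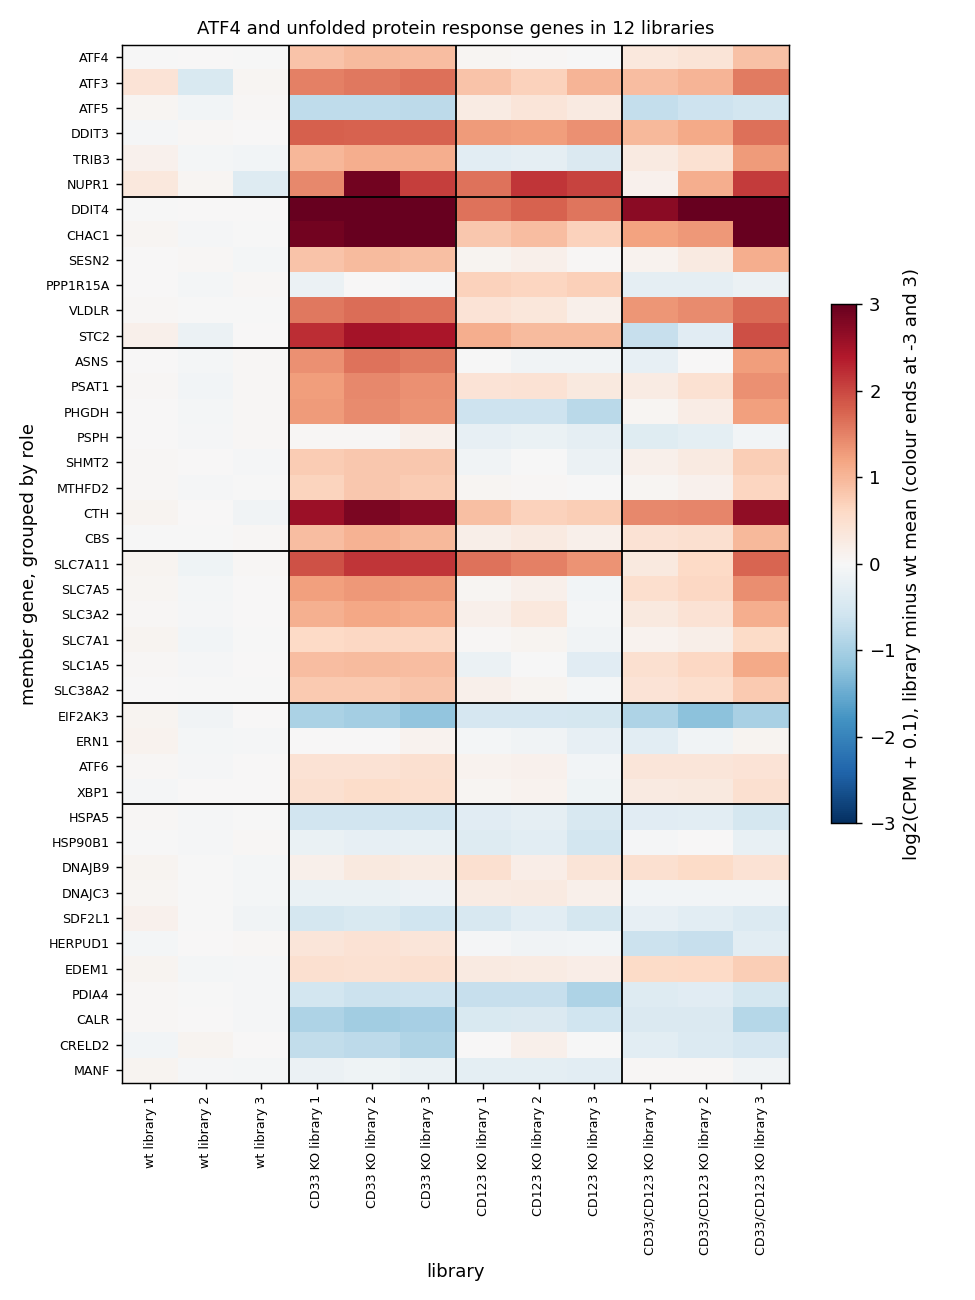
Heat map of the 41 members (rows, grouped by role and separated by lines) in the 12 libraries (columns), coloured by log2(CPM + 0.1) minus the wt mean, with colours ending at -3 and 3. CD33 KO libraries and CD33/CD123 KO library 3 are red across the regulators, effectors, enzymes and transporters, apart from ATF5, PPP1R15A and PSPH, and most chaperones in the lowest block are blue.

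The CD33 KO clone showed the widest change. Of the 41 members 28 rose, 10 fell and 3 did neither, against 30.6% of all genes tested that rose and 32.5% that fell. Called members numbered 10, all higher, where 1.96% of all genes tested were called higher and 6.5% lower. The median log2 fold change was 0.80 over the members and -0.02 over all genes tested. The direction followed the role: the ATF4-linked regulators, effectors, enzymes and transporters accounted for 23 of the 28 rises, and the chaperones for 8 of the 10 falls.

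Among the regulators, ATF4 itself (chr22:39916564-39918691, hg19, plus strand) stood at 435, 444 and 437 CPM in wt, 797, 850.3 and 827 in CD33 KO, 456, 451 and 438 in CD123 KO and 549, 575 and 805 in CD33/CD123 KO. The CD33 KO libraries lay well above wt and CD123 KO did not, and library 3 of CD33/CD123 KO reached the CD33 KO range while libraries 1 and 2 lay between. In CD33 KO the log2 fold change was 0.91 (SE 0.13, adjusted p = 0.000192, edgeR's quasi-likelihood test), from 439 ± 4.93 to 825 ± 26.7 CPM (SD, n = 3). DDIT3, which encodes the stress-induced factor CHOP (chr12:57910371-57914300, minus strand), was at 7.35, 7.68 and 7.63 CPM in the wt libraries, 26.3, 25.9 and 26.0 in CD33 KO, 18.5, 18.2 and 19.7 in CD123 KO and 15.0, 16.8 and 24.0 in CD33/CD123 KO. Every edited library exceeded every wt library, and the log2 fold change in CD33 KO was 1.78 (SE 0.12). ATF3, a stress-induced factor of the same family (chr1:212738676-212794119, plus strand), measured 3.30, 1.77 and 2.55 CPM in wt, 7.23, 7.59 and 7.96 in CD33 KO, 4.56, 4.06 and 5.10 in CD123 KO and 4.76, 5.09 and 7.40 in CD33/CD123 KO. It was higher in all edited libraries than in any wt library, with a log2 fold change of 1.68 in CD33 KO (SE 0.18). NUPR1, a small stress-induced chromatin protein, was close to the limit of detection: it stood at 0.0623, 0.0369 and 0 CPM in wt, 0.252, 0.870 and 0.453 in CD33 KO, 0.306, 0.476 and 0.429 in CD123 KO and 0.0433, 0.180 and 0.462 in CD33/CD123 KO. The 3 wt libraries together held 3 counts of it, so the rise in CD33 KO is given as a ratio of 15.8 with a 95% exact interval of 5.20 to 78.7 that covers counting error only. TRIB3, a pseudokinase that restrains ATF4 and CHOP, averaged 37.7 ± 3.10 CPM in wt and 78.1 ± 3.00 in CD33 KO, a log2 fold change of 1.07. ATF5, a related factor, was the exception. It fell from 22.7 ± 1.02 to 13.3 ± 0.112 CPM in CD33 KO (log2 -0.76, SE 0.07).

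DDIT3 shares 68 exon bases with MARS, ATF5 shares 75 with IL4I1 and with NUP62, and SLC7A11 shares 276 with SLC7A11-AS1, each on the opposite strand. Also on the opposite strand, EIF2AK3 shares 781 with LOC101928371, VLDLR 172 with VLDLR-AS1, SHMT2 33 with NDUFA4L2 and DNAJB9 24 with THAP5. The library kit keeps strand, but the labels leave unsaid whether counting used it, and reads in those stretches cannot be told apart. SLC7A5 has 2 transcribed copies in the table with 1232 and 791 counts in all against 273189 for the gene, and MTHFD2 a paralogue, MTHFD2L, with 1656 against 137426.

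The stress effectors held the largest changes. DDIT4, also called REDD1, is a stress-induced inhibitor of mTORC1, the kinase complex that drives growth (chr10:74033677-74035797, plus strand), and was at 21.5, 22.1 and 22.0 CPM in the wt libraries, 386, 442 and 427 in CD33 KO, 67.9, 74.9 and 66.9 in CD123 KO and 144, 174 and 451 in CD33/CD123 KO. All edited libraries lay above wt without overlap, and CD33/CD123 KO library 3 was level with CD33 KO. The log2 fold change in CD33 KO was 4.25 (SE 0.44, adjusted p = 2.98e-05, edgeR's quasi-likelihood test), the largest among the members. CHAC1, an enzyme that degrades glutathione (chr15:41245636-41248717, plus strand), measured 9.77, 9.20 and 9.27 CPM in wt, 70.1, 82.8 and 78.7 in CD33 KO, 16.7, 17.9 and 15.2 in CD123 KO and 21.9, 23.4 and 79.5 in CD33/CD123 KO. CD33 KO and library 3 of CD33/CD123 KO stood together, apart from all other libraries, and the log2 fold change in CD33 KO was 3.04 (SE 0.47). STC2, a secreted glycoprotein (chr5:172741726-172756506, minus strand), stood at 9.34, 7.35 and 8.41 CPM in wt, 39.2, 47.5 and 45.6 in CD33 KO, 17.9, 16.2 and 16.2 in CD123 KO and 5.11, 6.53 and 32.0 in CD33/CD123 KO. CD33/CD123 KO libraries 1 and 2 were below all wt libraries, and library 3 was well above them. STC2 rose in CD33 KO by a log2 of 2.43 (SE 0.54). VLDLR, a lipoprotein receptor that ATF4 can induce (chr9:2621793-2654485, plus strand), was at 27.0, 26.0 and 26.0 CPM in the wt libraries, 79.6, 84.2 and 81.7 in CD33 KO, 35.0, 33.3 and 29.4 in CD123 KO and 66.3, 70.1 and 85.4 in CD33/CD123 KO. Here all 3 CD33/CD123 KO libraries were high, and the log2 fold change in CD33 KO was 1.64 (SE 0.08). SESN2, a leucine sensor that also inhibits mTORC1, averaged 52.1 ± 2.09 CPM in wt and 97.4 ± 3.22 in CD33 KO (log2 0.90). PPP1R15A, the GADD34 phosphatase subunit that reverses eIF2 phosphorylation, neither rose nor fell in CD33 KO (36.0 ± 1.13 against 34.3 ± 2.36 CPM, log2 -0.07).

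Of the 8 enzymes 7 rose in CD33 KO, and 2 were called. CTH, which makes cysteine from cystathionine (chr1:70876901-70905534, plus strand), measured 7.66, 7.24 and 6.74 CPM in wt, 43.2, 51.3 and 48.2 in CD33 KO, 13.5, 11.7 and 12.2 in CD123 KO and 19.9, 20.0 and 45.9 in CD33/CD123 KO. Its log2 fold change in CD33 KO was 2.73 (SE 0.31), and the edited libraries did not overlap wt in any clone. ASNS, asparagine synthetase and a classical amino acid response gene (chr7:97481429-97501854, minus strand), stood at 93.6, 89.4 and 95.6 CPM in wt, 239, 286 and 274 in CD33 KO, 91.6, 86.1 and 86.9 in CD123 KO and 78.6, 93.4 and 220.4 in CD33/CD123 KO. Only CD33 KO and CD33/CD123 KO library 3 stood out, and the remaining 8 libraries lay between 78.6 and 95.6 CPM. ASNS was called at a log2 of 1.52 (SE 0.33), close to the threshold. The serine synthesis enzymes PHGDH and PSAT1 rose from 137 to 348 CPM (log2 1.35) and from 163 to 417 CPM (log2 1.36), while PSPH, which completes that pathway, showed 27.7 ± 0.533 and 29.1 ± 1.28 CPM and did neither. SHMT2 and MTHFD2, mitochondrial one-carbon enzymes, rose by log2 0.80 and 0.75, and CBS, which acts just before CTH, by 0.97.

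All 6 transporters rose in CD33 KO. SLC7A11, the cystine importer (chr4:139085248-139163503, minus strand), was at 19.5, 16.7 and 18.9 CPM in the wt libraries, 68.6, 80.7 and 81.8 in CD33 KO, 56.8, 52.8 and 46.6 in CD123 KO and 22.4, 27.6 and 61.5 in CD33/CD123 KO. All edited libraries lay above the wt libraries, with CD33/CD123 KO libraries 1 and 2 nearest to wt, and the log2 fold change in CD33 KO was 2.09 (SE 0.32). The heterodimer that imports leucine and other large neutral amino acids, SLC7A5 with SLC3A2, rose by log2 1.27 and 1.12, which took SLC7A5 from 408 ± 18.1 to 983 ± 24.9 CPM. The glutamine transporters SLC1A5 and SLC38A2 rose by 0.93 and 0.80, and the arginine and lysine transporter SLC7A1 by 0.62.

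ATF4 binds with C/EBP partners to the C/EBP-ATF response element, searched here as TGATGNAAN on both strands of windows from 250 bases before to 50 bases after the RefSeq transcript starts (GRCh38.p14). Windows were found for 37 of the 41 members. NUPR1, PSPH, SHMT2 and SLC7A11 were not matched. The element occurred in windows of 7 members, ATF3, CHAC1, ASNS, SLC3A2, SLC7A1, SLC1A5 and HERPUD1. All 7 rose in CD33 KO, where 28 of the 41 members rose. Counted by window, 7 of 53 member windows held it, against 3.61% of 35116 windows of all genes. A match is a description of letters and not a bound site. The shares are a description too, since the members were chosen as known stress response genes. STC2, DDIT4, CTH, PHGDH, PSAT1, TRIB3 and SESN2 were also highest in CD33 KO and CD33/CD123 KO library 3, but their windows held no match. The windows of CHAC1 (chr15:40953221-40953520, plus strand) and ASNS (chr7:97872359-97872658, minus strand) are shown because both genes carry the element and separate CD33 KO and CD33/CD123 KO library 3 from the other libraries. Capitals mark the element, which CHAC1 carries on the reverse strand.
CHAC1: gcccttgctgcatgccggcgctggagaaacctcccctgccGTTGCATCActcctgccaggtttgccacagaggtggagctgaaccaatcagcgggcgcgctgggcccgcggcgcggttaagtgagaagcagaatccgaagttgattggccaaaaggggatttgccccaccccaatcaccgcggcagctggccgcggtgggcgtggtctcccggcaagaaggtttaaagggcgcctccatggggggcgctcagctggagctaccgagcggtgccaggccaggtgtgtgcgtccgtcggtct
ASNS: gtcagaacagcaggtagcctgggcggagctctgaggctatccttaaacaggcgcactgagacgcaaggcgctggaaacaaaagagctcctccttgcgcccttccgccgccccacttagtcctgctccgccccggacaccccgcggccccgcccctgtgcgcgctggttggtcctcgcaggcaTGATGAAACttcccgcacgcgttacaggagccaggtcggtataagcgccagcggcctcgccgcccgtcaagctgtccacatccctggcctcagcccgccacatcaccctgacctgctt
In CHAC1 the element lies 210 to 202 bases before the transcript start, and in ASNS 68 to 60 bases before it.

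The sensors and XBP1 had a median log2 fold change of 0.25 in CD33 KO, with EIF2AK3 down and ATF6 and XBP1 up. EIF2AK3, the PERK kinase (chr2:88856259-88927094, minus strand), measured 17.4, 15.1 and 16.6 CPM in wt, 8.37, 7.98 and 7.17 in CD33 KO, 11.5, 11.5 and 11.3 in CD123 KO and 8.58, 6.95 and 8.21 in CD33/CD123 KO. It was lower in every edited library than in any wt library and fell in CD33 KO by 1.05 on the log2 scale (SE 0.09). ERN1, the IRE1 kinase and RNase (chr17:62120390-62207502, minus strand), stood at 14.3, 12.7 and 13.0 CPM in wt, 13.5, 13.3 and 14.2 in CD33 KO, 12.7, 12.4 and 11.3 in CD123 KO and 10.7, 12.4 and 14.0 in CD33/CD123 KO. Its groups overlapped, and the log2 fold change in CD33 KO was 0.05 (SE 0.09). ATF6, the membrane-bound factor cleaved on stress (chr1:161736034-161933860, plus strand), was at 102, 96.1 and 99.7 CPM in the wt libraries, 135, 134 and 137 in CD33 KO, 107, 108 and 93.7 in CD123 KO and 127, 129 and 132 in CD33/CD123 KO. It was higher in CD33 KO and CD33/CD123 KO than in wt without overlap, by log2 0.45 in CD33 KO (SE 0.05). XBP1, whose mRNA IRE1 splices (chr22:29190548-29196560, minus strand), measured 175, 178 and 180.3 CPM in wt, 249, 261 and 251 in CD33 KO, 187, 193 and 163 in CD123 KO and 216, 218 and 246 in CD33/CD123 KO. CD33 KO and CD33/CD123 KO again lay above wt, with a log2 fold change of 0.51 in CD33 KO (SE 0.06). Gene counts do not separate spliced from unspliced XBP1.

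The 11 chaperones and degradation factors went mostly down. In CD33 KO 8 fell, 3 rose and none was called, with a median log2 fold change of -0.22. HSPA5, the chaperone BiP that holds the sensors inactive (chr9:127997127-128003666, minus strand), stood at 551, 532 and 542 CPM in wt, 364, 361 and 363 in CD33 KO, 427, 452 and 387 in CD123 KO and 427, 437 and 376 in CD33/CD123 KO. All edited libraries lay below all wt libraries, and in CD33 KO it fell by 0.58 on the log2 scale (SE 0.05, adjusted p = 2.13e-09, edgeR's quasi-likelihood test). CALR, the calcium-binding chaperone calreticulin, had the largest fall among them, from 938 ± 20.4 to 472 ± 22.8 CPM (log2 -0.99). CRELD2, a secreted stress-induced protein, fell by 0.82, PDIA4, a disulphide isomerase, by 0.60, and SDF2L1, a cofactor of BiP, by 0.52. HSP90B1 (the chaperone GRP94) fell by 0.22, DNAJC3, a co-chaperone that inhibits PERK, by 0.18 and MANF, a secreted stress-induced factor, by 0.16. The rises were EDEM1, which directs misfolded glycoproteins to degradation, at 0.47, HERPUD1, a ubiquitin ligase partner, at 0.39, and the co-chaperone DNAJB9 at 0.24.

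The endoplasmic reticulum stress element, through which ATF6 acts, was searched on both strands as CCAAT and CCACG with 9 bases between them, and its shorter relative as ATTGG and CCACG with 1 base between them. The first occurred in 5 members, CALR, CRELD2, HSP90B1, HSPA5 and XBP1, and in 5 of 53 member windows against 0.0769% of all windows. The second occurred in HERPUD1 and SDF2L1, and in 2 of 53 member windows against 0.0541% of all windows. Because the members were chosen as known stress response genes, these shares are a description and not a test. Of the 5, XBP1 rose in CD33 KO and the others fell. The XBP1 element TGACGTGG was in no member window and in 0.729% of all windows. The windows of HSPA5 (chr9:125241294-125241593, minus strand) and CALR (chr19:12938359-12938658, plus strand) are shown as chaperones that fell in all 3 clones, and that of HERPUD1 (chr16:56931892-56932191, plus strand) because it holds both an ATF4-type element and the short stress element. Capitals mark the elements, and the first run of capitals in HERPUD1 is the ATF4-type element on the reverse strand.
HSPA5: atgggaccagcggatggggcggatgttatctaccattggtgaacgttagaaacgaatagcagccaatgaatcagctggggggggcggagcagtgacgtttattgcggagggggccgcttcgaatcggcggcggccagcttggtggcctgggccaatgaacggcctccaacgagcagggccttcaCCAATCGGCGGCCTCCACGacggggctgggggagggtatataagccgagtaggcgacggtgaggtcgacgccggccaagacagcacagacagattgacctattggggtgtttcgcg
CALR: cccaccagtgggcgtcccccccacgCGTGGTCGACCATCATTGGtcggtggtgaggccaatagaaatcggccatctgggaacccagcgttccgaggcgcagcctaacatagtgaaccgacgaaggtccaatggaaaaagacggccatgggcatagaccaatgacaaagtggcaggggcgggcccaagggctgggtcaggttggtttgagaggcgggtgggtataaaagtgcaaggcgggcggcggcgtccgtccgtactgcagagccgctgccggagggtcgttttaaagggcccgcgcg
HERPUD1: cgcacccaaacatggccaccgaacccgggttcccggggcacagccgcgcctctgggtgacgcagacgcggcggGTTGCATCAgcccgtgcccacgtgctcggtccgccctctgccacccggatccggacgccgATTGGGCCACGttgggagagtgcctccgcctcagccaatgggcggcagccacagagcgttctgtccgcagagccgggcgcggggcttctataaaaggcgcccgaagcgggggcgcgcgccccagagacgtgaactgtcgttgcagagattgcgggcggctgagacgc
HERPUD1 and DNAJC3 changed in opposite directions in different clones. HERPUD1 was at 98.7, 104 and 105 CPM in the wt libraries, 132, 138 and 133 in CD33 KO, 100.3, 94.8 and 97.2 in CD123 KO and 65.5, 63.0 and 82.8 in CD33/CD123 KO. It rose in CD33 KO (log2 0.39), fell in CD33/CD123 KO (-0.55) and overlapped wt in CD123 KO (-0.08), and the difference between CD33/CD123 KO and CD33 KO was -0.93 (SE 0.07, adjusted p = 1.73e-07, edgeR's quasi-likelihood test). Without CD33/CD123 KO library 3, HERPUD1 in that clone was at -0.68 against wt and -1.07 against CD33 KO. DNAJC3 fell in CD33 KO (-0.18), rose in CD123 KO (0.23) and did neither in CD33/CD123 KO (-0.07).

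**Figure D2:**
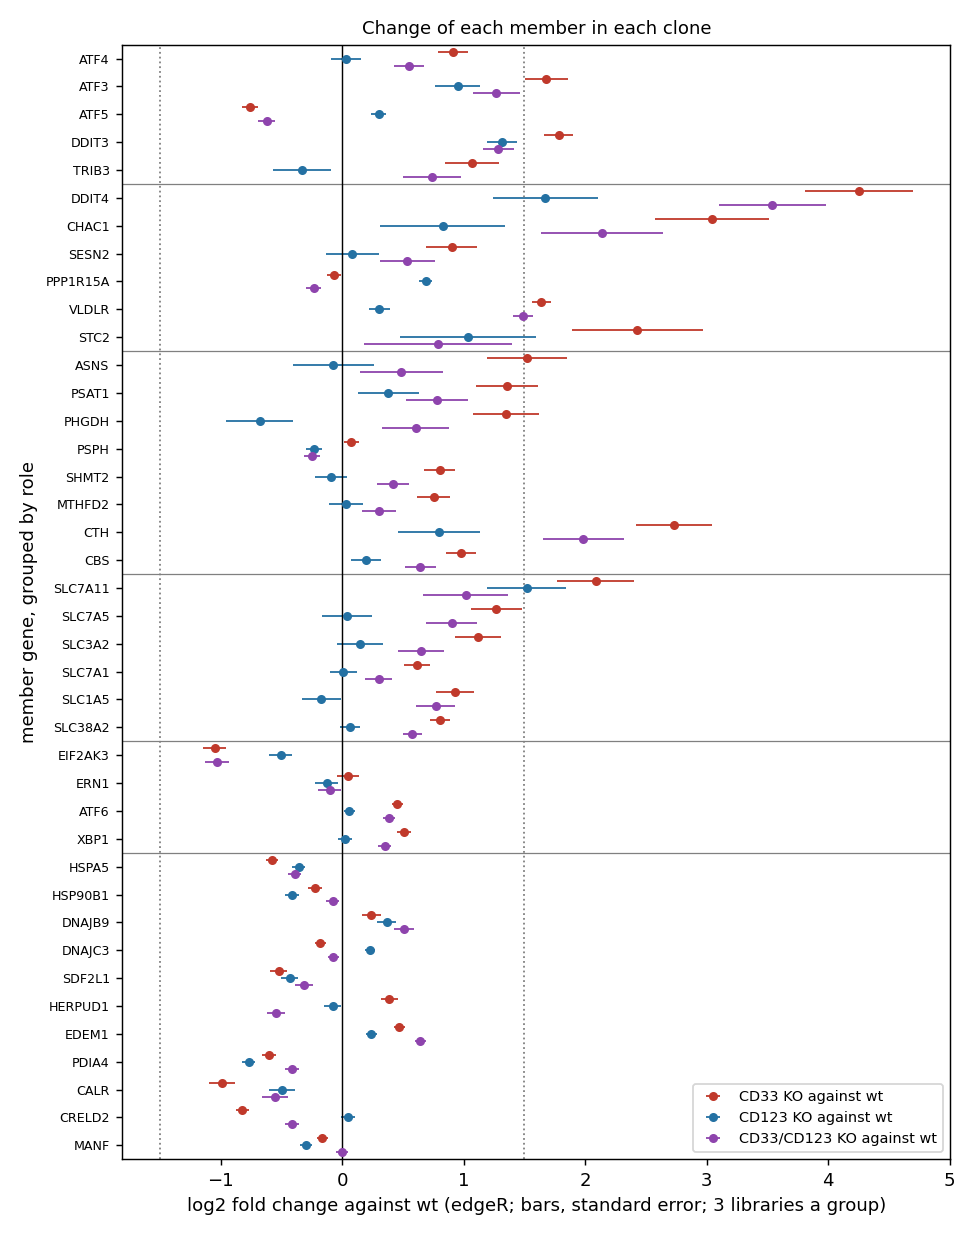
Log2 fold change against wt (x axis; bars, standard error; 3 libraries a group) of 40 members (rows, grouped by role; NUPR1 is left out for its low counts) in each clone, with dotted lines at -1.5 and 1.5. CD33 KO points (red) lie farthest right among regulators, effectors, enzymes and transporters except ATF5 and PPP1R15A, with DDIT4 at 4.25, and most chaperones lie left of 0 in all clones.

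In the CD123 KO clone fewer members moved. Of the 41 members 11 rose, 8 fell and 22 did neither, where 29.6% of all genes tested rose and 29.9% fell. Called members were 3, all higher, against a background of 2.62% called higher and 2.73% lower. The members' median log2 fold change was 0.04 and that of all genes tested 0.01. The called members were DDIT4 (log2 1.67, SE 0.43), SLC7A11 (1.52, SE 0.33) and NUPR1, whose ratio to wt was 14.0 (95% exact counting interval 4.48 to 70.3).

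ATF4 RNA in CD123 KO was 448 ± 9.42 CPM against 439 ± 4.93 in wt (log2 0.03, adjusted p = 0.847, edgeR's quasi-likelihood test). DDIT3 nevertheless rose by 1.31 and ATF3 by 0.95. PPP1R15A rose from 36.0 ± 1.13 to 57.9 ± 1.78 CPM (log2 0.69) in this clone, and ATF5 rose by 0.30. Both were higher here than in CD33 KO (CD33 KO minus CD123 KO, log2 -0.76 and -1.06, adjusted p = 3.41e-12 and 2.06e-13, edgeR's quasi-likelihood test). Of the 8 enzymes none rose and PSPH fell (log2 -0.23). SLC7A11 was the transporter that rose, and the other 5 overlapped wt. EIF2AK3 fell by 0.51. Among the chaperones 6 fell, led by PDIA4 (-0.77), CALR (-0.49) and SDF2L1 (-0.43), and DNAJB9, EDEM1 and DNAJC3 rose by 0.36, 0.24 and 0.23.

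These counts depended on the spread that all 12 libraries share. Without CD33/CD123 KO library 3 in the fit, an alternative chosen after seeing the data, 16 members rose and 10 fell in CD123 KO, against 31% and 30.1% of all genes. The added rises were CHAC1 (log2 0.83), STC2 (1.04), CTH (0.80), PSAT1 (0.39) and CBS (0.20), and the added falls PHGDH (-0.67) and TRIB3 (-0.32), with adjusted p from 6.03e-10 to 0.000178 (edgeR's quasi-likelihood test). CHAC1, for example, stood at 16.7, 17.9 and 15.2 CPM in CD123 KO against 9.77, 9.20 and 9.27 in wt. The 3 called members were the same in both fits.

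In the CD33/CD123 KO clone 22 members rose, 10 fell and 9 did neither, where 28.8% of all genes tested rose and 29.8% fell. With the 6 libraries of both groups fitted alone, 12 rose and 10 fell, against 28.5% and 29.7% of all genes, so the number of rises depended on the libraries that give the spread. Called members were 4, all higher, against 1.86% of all genes called higher and 7.36% lower: DDIT4 (log2 3.54, SE 0.44), CHAC1 (2.14, SE 0.50), CTH (1.98, SE 0.33) and NUPR1, whose ratio to wt was 7.14 (95% exact counting interval 1.93 to 39.5) with 8 of its 12 counts in library 3. All 6 transporters rose, by 0.30 for SLC7A1 to 1.02 for SLC7A11. EIF2AK3 fell by 1.03, ATF5 by 0.62 and PPP1R15A by 0.24, and of the chaperones 6 fell, led by CALR (-0.55) and HERPUD1 (-0.55), while EDEM1 rose by 0.64 and DNAJB9 by 0.51.

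Much of this rested on library 3. Without it 22 members rose and 11 fell, but DDIT4 alone was called, where 1.66% of all genes were called higher, and the members' median log2 fold change was 0.22 instead of 0.51. DDIT4 kept a log2 of 2.85, CTH 1.47, VLDLR 1.37, CHAC1 1.27, DDIT3 1.06 and ATF4 0.35. All 6 transporters still rose, by 0.14 for SLC7A1 to 0.57 for SLC7A5. NUPR1 no longer passed the test (log2 1.67, adjusted p = 0.289, edgeR's quasi-likelihood test). STC2 changed sign, from 0.79 (adjusted p = 0.303) to -0.51 (adjusted p = 0.0033, edgeR's quasi-likelihood test), and ASNS went from 0.49 to -0.12 without passing the test in either fit. VLDLR, EIF2AK3 (-1.05), ATF5 (-0.66), EDEM1 (0.58) and DNAJB9 (0.54) moved little.

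**Figure D3:**
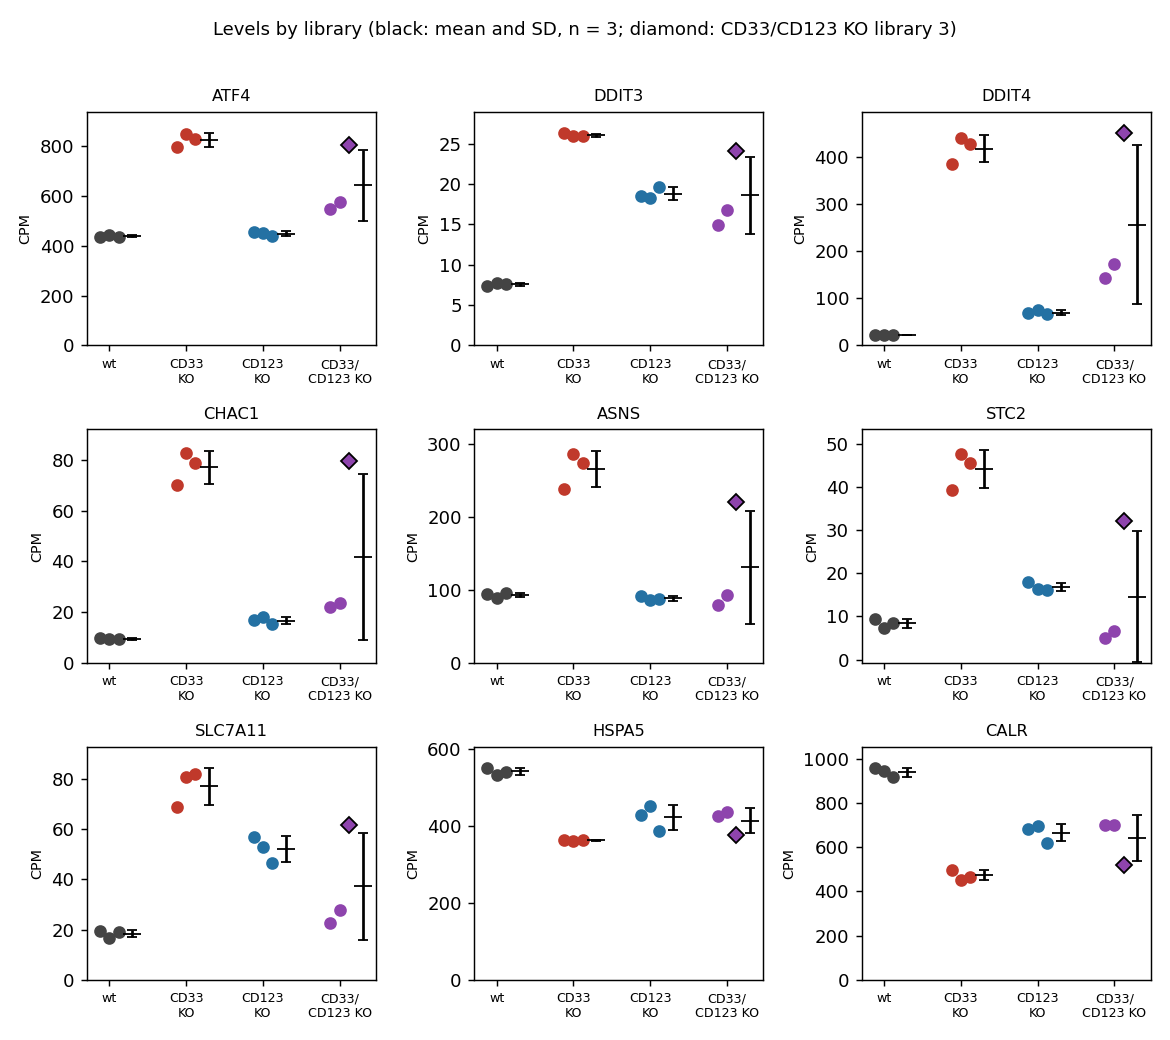
CPM (y axis) of 9 members in each library by genotype, with the mean and SD of 3 libraries in black and CD33/CD123 KO library 3 as a diamond; the lower STC2 bar passes below 0. In ATF4, DDIT4, CHAC1, ASNS and STC2 the diamond lies with or near the CD33 KO libraries and far from its own clone's other libraries.

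The distance of each library from the mean of the other libraries of its genotype was measured on log2 CPM. For CD33/CD123 KO library 3 the median over the 41 members was 0.43, while in the 9 libraries of the other genotypes it ran from -0.11 to 0.09. In library 3, 20 members (48.8%) lay more than 0.5 above libraries 1 and 2, against 6.32% of all genes tested, and none lay more than 0.5 below. Library 3 was singled out beforehand as differing in these genes, so these values describe the difference and do not test it. The farthest were STC2 at 2.46, CHAC1 at 1.81, NUPR1 at 1.75, DDIT4 at 1.51, ASNS at 1.36 and SLC7A11 at 1.30. ATF4 itself was 0.52 higher.

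The roles separated here too. All 6 regulators, 6 effectors, 8 enzymes and 6 transporters were above libraries 1 and 2, with medians of 0.59, 1.21, 0.78 and 0.65, as were the 4 sensor genes with a median of 0.14. The median over all genes tested was 0, and ATF5 and PPP1R15A were above by only 0.12 and 0.11. Of the 11 chaperones 9 were below, with a median of -0.15 and CALR lowest at -0.43. HERPUD1 and EDEM1 were the exceptions at 0.37 and 0.16.

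Library 3 lay close to the CD33 KO clone in these genes. On a scale with the mean of CD33/CD123 KO libraries 1 and 2 at 0 and the CD33 KO mean at 100, the median position of library 3 was 94.1 (quartiles 84.3 and 101) over the 21 members for which those ends differed by more than 0.5 log2. It was nearer to CD33 KO in 20 of the 21, with HERPUD1 the exception at 34.5. Over the 450 genes of the whole table called between CD33 KO and libraries 1 and 2, the median position was 4.34, and 58 lay nearer to CD33 KO. The 21 members were picked by a smaller difference than the 450 called genes, so these medians do not compare like sets. The 5 members called between CD33 KO and libraries 1 and 2 were STC2, NUPR1, CHAC1, ASNS and SLC7A11. Their positions ran from 80.2 for SLC7A11 to 103 for CHAC1. Among the 450 called genes, library 3 thus resembled its own clone in most, and the 58 nearer to CD33 KO included these 5 stress genes. Both ends and the position share libraries, so these values describe and do not test. The labels give no culture, date or batch that sets library 3 apart, and what moved these genes in it was not tested.

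**Figure D4:**
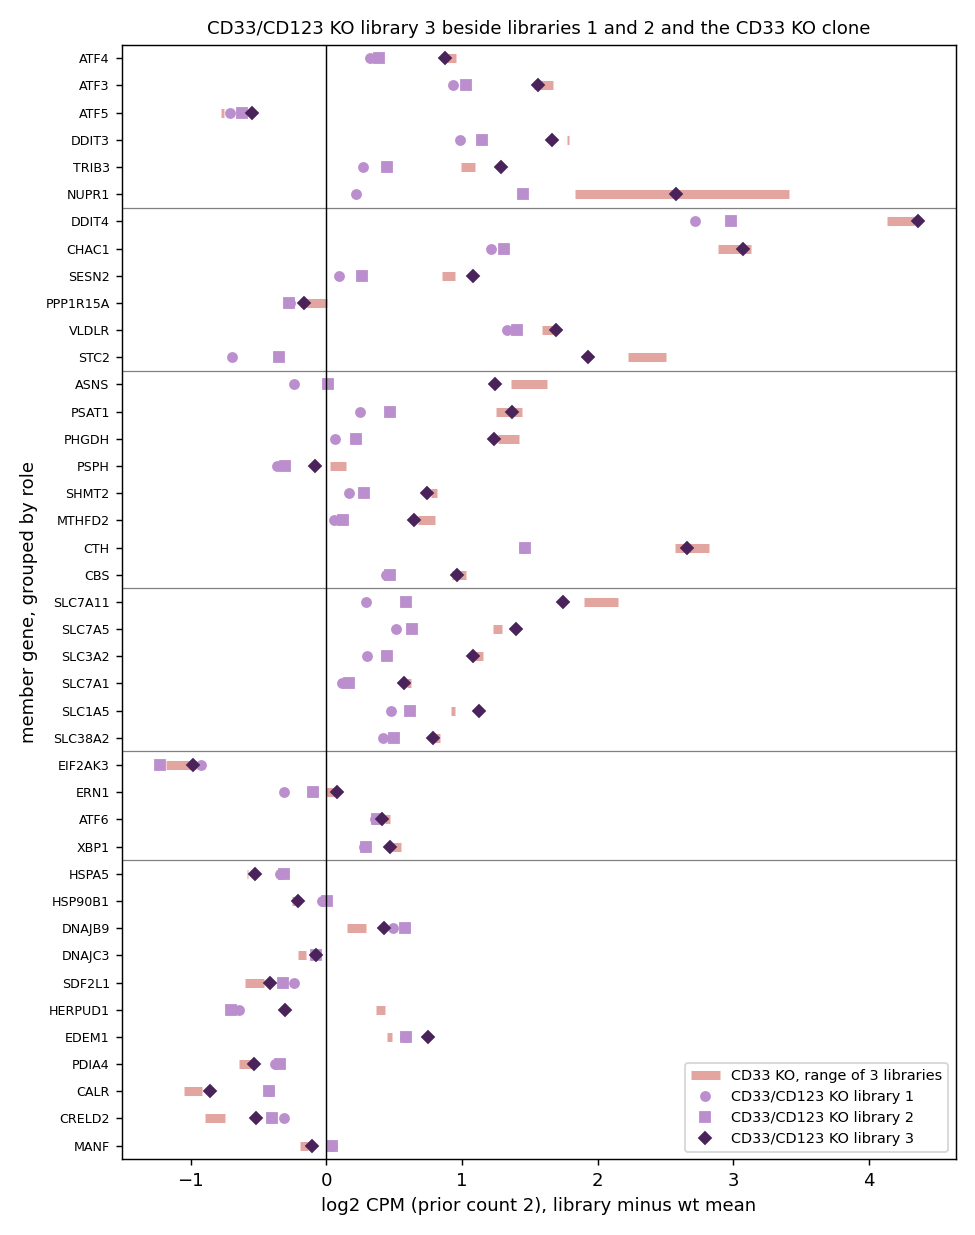
Log2 CPM minus the wt mean (x axis) of each member (rows, grouped by role) in CD33/CD123 KO libraries 1 (circle), 2 (square) and 3 (dark diamond), with the range of the 3 CD33 KO libraries as a red bar. From ATF4 to SLC38A2 the diamond lies to the right of the circle and square in every row, on or near the red bar in most of them.

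Compared directly, CD33 KO exceeded CD123 KO in 29 members and was lower in 7, where 31.7% of all genes tested were higher and 33.2% lower. Called members were 5, all higher in CD33 KO, against 1.31% of all genes called higher and 6.14% lower: DDIT4 (log2 2.58), CHAC1 (2.22), PHGDH (2.03), CTH (1.93) and ASNS (1.60). ATF4 differed by 0.88 (SE 0.13, adjusted p = 0.000252, edgeR's quasi-likelihood test), and all 8 enzymes were higher in CD33 KO. CRELD2, CALR and HSPA5 were lower in CD33 KO, by log2 values of -0.87, -0.50 and -0.22.

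Between CD33/CD123 KO and CD33 KO, 8 members rose, 8 fell and none was called, where 1.35% of all genes were called higher and 1.83% lower, 13.5% rose and 14.5% fell. Without library 3, 9 rose and 28 fell, against 13.2% and 16% of all genes, and 5 were called lower in CD33/CD123 KO, against 1.92% of all genes: STC2 (log2 -2.95), NUPR1 (-2.24), CHAC1 (-1.78), ASNS (-1.64) and SLC7A11 (-1.64). The 9 that rose were all chaperones, and every regulator apart from ATF5, and every effector, enzyme and transporter, was among the 28 that fell. Between CD33/CD123 KO and CD123 KO, 20 members rose and 6 fell, where 29.7% and 29.9% of all genes did. With these 2 groups fitted alone, 12 rose and 6 fell, against 27.3% and 29.6% of all genes. DDIT4 was called higher (log2 1.87, against 0.942% of all genes called higher and 6.7% lower). Without library 3 DDIT4 was at 1.17 and no member was called higher, against 0.885% of all genes. STC2 (-1.55) and NUPR1 (-1.98) were called lower, where 7.06% of all genes were.

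The 4 genotypes also allow the difference of differences, CD33/CD123 KO minus CD33 KO less CD123 KO minus wt. Editing was done in wt cells, so CD33/CD123 KO minus CD33 KO compares separate clones and not a CD33 KO clone before and after CD123 editing. With 1 clone per genotype, this difference also contains any clone difference. It was lower for 11 members and higher for 8, where 24.7% and 24.6% of all genes were, and 6 members were called lower against 3.68% of all genes called lower and 2.42% higher. The 6 were DDIT3, NUPR1, SLC7A11, DDIT4, CTH and STC2. DDIT3 rose by 1.31 between wt and CD123 KO but fell by 0.49 between CD33 KO and CD33/CD123 KO, a difference of -1.81 (SE 0.17, adjusted p = 1.6e-07, edgeR's quasi-likelihood test). SLC7A11 showed 1.52 and -1.07, a difference of -2.59. The chaperones went the other way: 7 of the 11 had a higher difference and 1 a lower one. Without library 3, 27 members had a lower difference and 9 were called lower, against 25.5% and 3.87% of all genes.

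Of 20 other tested ATF4 partners and targets, 16 rose and 3 fell in CD33 KO, 5 rose and 3 fell in CD123 KO, and 14 rose and 2 fell in CD33/CD123 KO. Of all genes tested, 30.6% rose and 32.5% fell in CD33 KO, 29.6% and 29.9% in CD123 KO, and 28.8% and 29.8% in CD33/CD123 KO. Called higher and lower were 1.96% and 6.5% in CD33 KO, 2.62% and 2.73% in CD123 KO, and 1.86% and 7.36% in CD33/CD123 KO. ADM2, a secreted peptide of the adrenomedullin family, was called higher in CD33 KO (log2 1.99). SLC38A1, a glutamine transporter, was called lower there (log2 -3.68, 25.7 ± 2.44 CPM in wt and 2.02 ± 0.347 in CD33 KO), in contrast to its member relative SLC38A2. Of 14 genes of eIF2 kinases and translation control, 8 rose and 1 fell in CD33 KO, 4 rose and 6 fell in CD123 KO, and 8 rose and 2 fell in CD33/CD123 KO, with none called. Of 32 further targets of ATF6 and XBP1 and quality control genes, 13 rose and 11 fell in CD33 KO, 4 rose and 16 fell in CD123 KO, and 15 rose and 9 fell in CD33/CD123 KO. WFS1, an endoplasmic reticulum membrane protein, was the gene of that list called in each clone, at log2 -1.79, -1.87 and -2.67. The CD33/CD123 KO counts of these lists include library 3 and were not repeated without it.

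General stress lists were counted in the same way. Of 12 immediate early genes, 9, 11 and 9 rose in CD33 KO, CD123 KO and CD33/CD123 KO, with 6, 8 and 6 called higher. Of all genes tested 30.6%, 29.6% and 28.8% rose, and 1.96%, 2.62% and 1.86% were called higher. Of 12 cytosolic heat shock genes, 8, 7 and 7 fell, against 32.5%, 29.9% and 29.8% of all genes tested. In CD33/CD123 KO library 3, by contrast with libraries 1 and 2, 19 of the 20 other ATF4 targets were higher (median 0.28, SLC6A9 highest at 1.89), 6 of 7 thioredoxin-interacting and glucose-responsive genes were higher (median 0.26, TXNIP highest at 0.49), the immediate early genes had a median of 0.05, and 1 of the 12 heat shock genes was higher (median -0.25). The median over all genes tested in that library was 0. The part of these lists in the results on the members was not tested.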

How the data were processed

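The 12 poly(A) RNA libraries came with 1 deposited table of whole-number read counts per gene, which the authors made with HISAT2, hg19 and featureCounts, per the submitters' processing notes; neither versions nor the strand setting is given in the sources used here. Per the file headers, the same table gives each gene's position and exon length in bases, used here for RPKM. Counts were tested with edgeR 4.0.16 in R 4.3.3 (TMM scaling, filterByExpr, robust quasi-likelihood test, Benjamini-Hochberg adjustment over the 14010 genes tested), with all 12 libraries in 1 fit. Called means an adjusted p under 0.05 and a log2 fold change beyond 1.5, the study's thresholds. The common biological coefficient of variation was 5.41%, and 3 libraries a group limit the precision. CPM used library totals scaled by TMM, and log2 CPM a prior count of 2. Each standard error (SE) was derived from the test, as the size of the log2 fold change divided by the square root of the F statistic. The fit was also run on simulated data with changes planted in CD33 KO alone and no library apart from its replicates. That run says nothing on the effect of CD33/CD123 KO library 3.

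As alternatives, the scaling was changed to RLE size factors, the upper quartile or library size alone, and the following were tried: 2 low-count filters, DESeq2 1.42.0, limma-voom (limma 3.58.1), other thresholds, fits on the compared groups alone, and each library left out. The members and lists were chosen with earlier results of these data known. Values in every library are given for members called against wt in a clone, for ATF4, HSPA5, XBP1 and the sensors, for the 6 members farthest out in CD33/CD123 KO library 3 and, chosen after its values were seen, HERPUD1. Of other pathway genes, called genes with at least 5 CPM in the higher group are named, up to 4 by adjusted p. SLC6A9 was chosen after its values were seen. Promoter windows came from RefSeq.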

Additional observations from a re-analysis of the deposited data

Results flagged for a closer look

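In 6 members, the log2 value of CD33/CD123 KO minus CD33 KO differed from that of CD123 KO minus wt, with each difference called. This was by a test of the difference itself (edgeR's quasi-likelihood test). The difference was -1.81 for DDIT3 and -4.83 for NUPR1, which had 3 counts in wt. It was -2.59 for SLC7A11, from 1.52 for CD123 KO minus wt to -1.07 for CD33/CD123 KO minus CD33 KO. For DDIT4 it was -2.38, from 1.67 to -0.71. CTH stood at -1.54 and STC2 at -2.67. Adjusted p ran from 1.6e-07 for DDIT3 to 0.0193 for STC2. The calls of CTH and STC2 were lost in some fits with 1 library left out. Without CD33/CD123 KO library 3 the differences were larger in size, from -2.04 for DDIT3 and -2.06 for CTH to -5.89 for NUPR1. Each edited genotype is 1 clone, so the edit and the clone cannot be told apart.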

How the results depend on the processing

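No paired analysis was possible because the labels give each library a number of its own, from 1 to 15, and repeat none between groups. No called member changed direction under any alternative. With a threshold of log2 1 in place of 1.5, 15, 4 and 8 members were called higher in CD33 KO, CD123 KO and CD33/CD123 KO against wt (4.03%, 5.64% and 3.78% of all genes). So were 10 in CD33 KO against CD123 KO (2.96%) and 6 in CD33/CD123 KO against CD123 KO (2.12%), and 2 were called lower in CD33/CD123 KO against CD33 KO (3.07%). At that threshold 1 member each was also lower in CD33 KO and CD33/CD123 KO against wt and in CD33 KO against CD123 KO (9.26%, 10% and 9.84%). With adjusted p alone the counts higher and lower were 28 and 10 in CD33 KO, 11 and 8 in CD123 KO and 22 and 10 in CD33/CD123 KO, all against wt, then 29 and 7 in CD33 KO against CD123 KO, 8 and 8 in CD33/CD123 KO against CD33 KO, 20 and 6 in CD33/CD123 KO against CD123 KO, and 8 and 11 for the difference of differences. Upper-quartile scaling, library size alone, a minimum of 1 CPM, DESeq2 and limma-voom each called 1 member lower in CD33/CD123 KO against CD33 KO. Fitting the compared groups alone called 2 members in CD33/CD123 KO against wt. It gave 16 rises and 10 falls in CD123 KO, but 12 rises in place of 22 in CD33/CD123 KO against wt and 12 in place of 20 against CD123 KO, near the shares of all genes. Leaving out 1 library gave 8 to 10 called higher in CD33 KO, 2 to 3 in CD123 KO and 1 to 5 in CD33/CD123 KO against wt. It gave 0 to 5 called lower in CD33/CD123 KO against CD33 KO, 0 to 3 higher and 0 to 2 lower in CD33/CD123 KO against CD123 KO (3 without library 1, 2 without library 2 and 0 without library 3 of CD33/CD123 KO), and 5 to 9 lower for the difference of differences. ATF3, ASNS and SLC7A11 were near the threshold: in CD33 KO ATF3 was at 1.41 without wt library 2 and ASNS at 1.41 with library size alone, and in CD123 KO SLC7A11 was at 1.44 without wt library 2. For the difference of differences, CTH lost its call in 5 fits without 1 library, down to -1.32 without CD33/CD123 KO library 1, and STC2 had an adjusted p of 0.0502 without wt library 2 (edgeR's quasi-likelihood test). Library size alone moved the median of all genes to -0.13 in CD33 KO and -0.12 in CD33/CD123 KO against wt, and 27 and 20 members then rose. Depth limits NUPR1, with 3 counts in wt: in CD33/CD123 KO it lost its call with limma-voom (adjusted p 0.0607), when wt library 2 or 3 was left out (0.0726 and 0.0882) and without library 3 of its own clone (0.289, edgeR's quasi-likelihood test).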
